A study of Mus musculus with 78 samples.

Results

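The inner cell mass (ICM) of the mouse blastocyst at E4.0 and the visceral endoderm (VE) at E5.5 were compared across all genes of a single expression table. E5.5 VE had 2 RNA-seq libraries and E4.0 ICM had 2, out of 78 samples in the series and 22 libraries in the table. Date-like and repeated gene symbols were set aside, which left 22586 genes, and 12874 of them with at least 1 FPKM in at least 2 of the 22 libraries were tested. FPKM are fragments per kilobase of transcript, scaled to the mapped fragments of each library.

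All embryos came from C57BL/6N mothers and DBA/2N fathers, with no mutant allele named. E5.5 VE came from natural matings, and its RNA was purified on an RNeasy Plus Micro column. E4.0 ICM came from superovulated mothers, was freed of trophectoderm by immunosurgery (antibody and complement lysis of the outer cells) and was lysed directly. Polyadenylated RNA was made into libraries with a modified Smart-Seq2 protocol, which amplifies cDNA from few cells. Stage and preparation therefore changed together and cannot be told apart in this comparison. E5.5 epiblast (Epi), prepared like E5.5 VE, is given beside it where it helps, and E6.5 VE against E3.5 ICM repeats the same kind of contrast in 4 libraries that the main comparison does not use. Numbers of embryos per library and whether the libraries came from separate litters are not given in the labels, so the tests measure the spread between these libraries.

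Shortly before implantation the ICM splits into epiblast, which forms the body of the embryo, and primitive endoderm, a surface layer marked by GATA and SOX factors. Primitive endoderm in turn gives parietal endoderm, which lays down a thick basement membrane, and visceral endoderm, a polarised epithelium around the epiblast. Visceral endoderm takes up maternal proteins through endocytosis, digests them in lysosomes, secretes apolipoproteins and serum proteins as the fetal liver later does, and in its anterior part releases inhibitors of Nodal and Wnt signalling. E4.0 ICM was not separated into its lineages, so it holds both epiblast precursors and primitive endoderm. In bulk RNA of this kind, fewer cells of a type and less RNA per cell cannot be told apart.

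The defining markers matched the labels. Transthyretin (Ttr), a carrier of thyroid hormone and retinol, had 898 and 1149 FPKM in E5.5 VE, against 0.176 and 0 FPKM in E4.0 ICM. Nr0b1, an orphan nuclear receptor of naive pluripotent cells, was listed at 0 in both E5.5 VE libraries, against 92.9 and 102 FPKM in E4.0 ICM. Sox7, a SOX factor of early primitive endoderm, was still detectable in VE at 3.32 and 11.8 FPKM, against 61.4 and 74.7 FPKM in E4.0 ICM. The E4.0 ICM libraries thus carried pluripotency and primitive endoderm markers side by side.

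Signs of maternal and trophoblast tissue were few. Of 9 genes of maternal blood and decidua in the table, 7 failed the filter on low values, and the 9 together came to 0.161 and 0.130 FPKM in E5.5 VE, against 0.671 and 0.246 FPKM in E4.0 ICM. The trophoblast genes Elf5, Tpbpa and Prl3d1 were listed at 0 in all 4 libraries, and 12 trophoblast genes summed to 16.5 and 8.81 FPKM in E5.5 VE, against 17.9 and 14.9 FPKM in E4.0 ICM. In E3.5 trophectoderm the same genes summed to 287 and 337 FPKM. Pou5f1, the pluripotency factor that defines epiblast, had 0.277 and 0.490 FPKM in E5.5 VE, against 456 and 255 FPKM in E5.5 Epi. Some other epiblast genes were detected in VE. Of the 12 in that list, 5 had at least 10 FPKM in both E5.5 VE libraries, Fgf5 and Utf1 among them. Of all 12874 genes tested, 3100 did. The 12 epiblast genes summed to 206 and 352 FPKM in E5.5 VE, against 1454 and 1241 FPKM in E5.5 Epi. The part of epiblast RNA in the results was not tested.

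The libraries differed in overall level. FPKM summed to 272055 and 329462 in E5.5 VE, against 345173 and 406633 in E4.0 ICM, and over 5830 genes detected in all 22 libraries the median log2 difference was -0.77. Depth is unknown, because FPKM carry no counts. The median log2 fold over all genes tested was -0.36, and it moved to -0.03 after quantile normalization and to 0.43 after centring each library on the genes detected everywhere. Falls are therefore given by list below with the number whose call held after both rescalings, and list medians are to be read against -0.36. Replicates correlated across genes with r of 0.963 in E5.5 VE and 0.968 in E4.0 ICM, which is a description, since genes are not independent replicates.

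Of the 12874 genes, 5234 were called (40.7%), which took a limma adjusted p below 0.05 together with a log2 change no smaller than 1 either way. Genes called higher in VE numbered 1467 (11.4%), and 1463 of them kept the call after both rescalings. Genes called lower numbered 3767 (29.3%), of which 1403 (10.9% of genes tested) kept it, and none changed direction. List counts below are to be read beside these shares of 11.4% higher and 29.3% lower. Quantile normalization split the calls 2238 higher and 2313 lower, and median centring split them 3421 higher and 1404 lower. A fit on the 4 libraries alone called 812 higher and 2076 lower. It took the spread from these libraries only and had fewer degrees of freedom. Of 191 called genes among the lists and the leading and most abundant genes, 128 kept their call in that fit, the 12 largest rises and 12 largest falls included, and 63 lost it. With each of the 4 libraries left out in turn, 949 of the rises and 2535 of the falls were called every time.

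**Figure D1:**
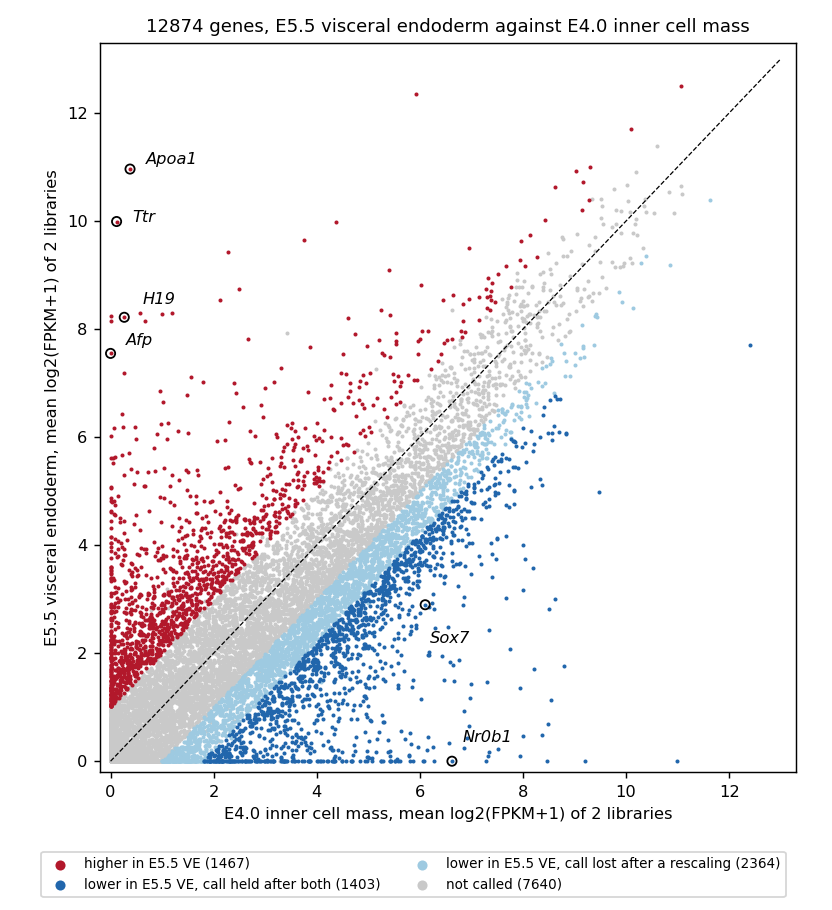
Mean log2(FPKM+1) of each gene in E5.5 visceral endoderm (vertical) and in E4.0 inner cell mass (horizontal), n = 2 libraries each, coloured by call, with the dashed line marking equal levels. Ttr, Apoa1, Afp and H19 lie along the left edge, near 0 in E4.0 inner cell mass, Nr0b1 lies on the bottom edge at 0 in visceral endoderm, and most lost calls lie just below the diagonal.

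Many rises started from low values in ICM. Among the 1467 genes that rose, 567 were under 1 FPKM in both E4.0 ICM libraries, and 133 were listed at 0 in both. Of all 12874 genes tested, 2830 were under 1 FPKM in both E4.0 ICM libraries. At the other end, 152 of the rises already had at least 10 FPKM in both E4.0 ICM libraries, as did 4317 of all genes tested. A near-complete switch, with at least 10 FPKM in both VE libraries and under 1 FPKM in both ICM libraries, was seen for 64 genes. Among the 3767 falls, the mirror class with under 1 FPKM in both VE libraries and at least 10 FPKM in both ICM libraries held 125 genes. By contrast, 863 genes that fell kept at least 10 FPKM in both VE libraries. Over all genes tested, 3158 were under 1 FPKM and 3100 had at least 10 FPKM in both VE libraries.

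The 12 largest rises and falls were ranked among genes with standard symbols, as set out under processing. A transcript named by a database identifier, passed over by this rule, had 423 and 216 FPKM in E5.5 VE and under 1 FPKM in both E4.0 ICM libraries. Secreted carriers led the 12 rises. Apoa1, the main protein of high-density lipoprotein, had 1541 and 2574 FPKM in E5.5 VE, against 0.688 and 0 FPKM in E4.0 ICM. Its log2 fold was 10.58 ± 0.77 (SE, limma, adjusted p = 7.1e-09). Afp, alpha-fetoprotein, had 242 and 143 FPKM in E5.5 VE and was listed at 0 in both E4.0 ICM libraries, and Rbp4, the serum carrier of retinol, had 340 and 287 FPKM in VE against 1.23 and 0 FPKM in ICM. H19, an imprinted long noncoding RNA, had 283 and 311 FPKM in VE against 0.446 and 0 FPKM in ICM. For each of these genes both VE libraries lay far above both ICM libraries. Lack of overlap was part of the rule that chose them, and 70.4% of all tested genes showed it in either direction.

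Other leading rises belonged to retinoic acid breakdown, proteolysis and the cell surface. Cyp26a1, which degrades retinoic acid, had 379 and 211 FPKM in VE and was listed at 0 in both ICM libraries. Ctsh, the lysosomal protease cathepsin H, had 255 and 317 FPKM in VE against 0.757 and 0.442 FPKM in ICM. Gpc3, a heparan sulfate proteoglycan, had 335 and 289 FPKM in VE against 2.86 and 0.0337 FPKM in ICM. Amot, an angiomotin that binds YAP at junctions, had 361 and 269 FPKM in VE against 0.581 and 2.31 FPKM in ICM, and in E5.5 Epi its mean was 2.44 FPKM. The remaining leaders were the apolipoproteins Apom and Apoa4 and Lars2, a mitochondrial leucyl-tRNA synthetase.

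Lars2 behaved unlike the others across stages. It had 5240 and 5173 FPKM in E5.5 VE, against 77.0 and 45.7 FPKM in E4.0 ICM, a log2 fold of 6.43 ± 0.62 (limma, adjusted p = 2.3e-07). In E6.5 VE it had 217 and 76.3 FPKM, against 292 and 242 FPKM in E3.5 ICM, and it was not called there (log2 fold -1.04, limma adjusted p = 0.17). E5.5 Epi, prepared like E5.5 VE, had 74.3 and 247 FPKM, so the high values were in the E5.5 VE libraries. The other 11 leading rises were also called higher in E6.5 VE against E3.5 ICM, as were 30.5% of all genes tested.

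The 12 largest falls included the pluripotency genes Nanog, Pou5f1 and Tdgf1 beside genes of other kinds. Spp1, the secreted phosphoprotein osteopontin, was listed at 0 in both E5.5 VE libraries, against 1782 and 2331 FPKM in E4.0 ICM. Nanog, a core factor of naive pluripotency, was listed at 0 in both VE libraries, against 385 and 322 FPKM in ICM. Tdgf1, the Nodal co-receptor Cripto, had 0 and 0.130 FPKM in VE, against 239 and 249 FPKM in ICM. Pou5f1 had 0.277 and 0.490 FPKM in VE against 305 and 215 FPKM in ICM (log2 fold -7.54 ± 0.59, SE, limma adjusted p = 2.0e-08). All 12 falls kept their call after both rescalings and without each library in turn.

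The falls differed in what the epiblast did at the same age. In E5.5 Epi Tdgf1 had a mean of 147 FPKM and Pou5f1 a mean of 355 FPKM, and both were far lower in VE than in Epi (log2 folds -7.10 and -7.95). Spp1, Nanog and Fbxo15, an F-box protein of pluripotent cells, had means of 14.7, 10.5 and 5.19 FPKM in E5.5 Epi, far under their ICM levels, though each was also called lower in VE than in Epi. Pramel7, Lefty2 and Tcl1, a co-activator of AKT, were not called between E5.5 VE and E5.5 Epi, where limma gave log2 folds of -0.54, -1.79 and -2.60. Mylpf, a myosin light chain, Nefl, a neurofilament subunit, and Glipr2 had 300 and 465, 157 and 212, and 301 and 427 FPKM in E4.0 ICM, and 2.46 FPKM was the highest value of any of them in VE.

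**Figure D2:**
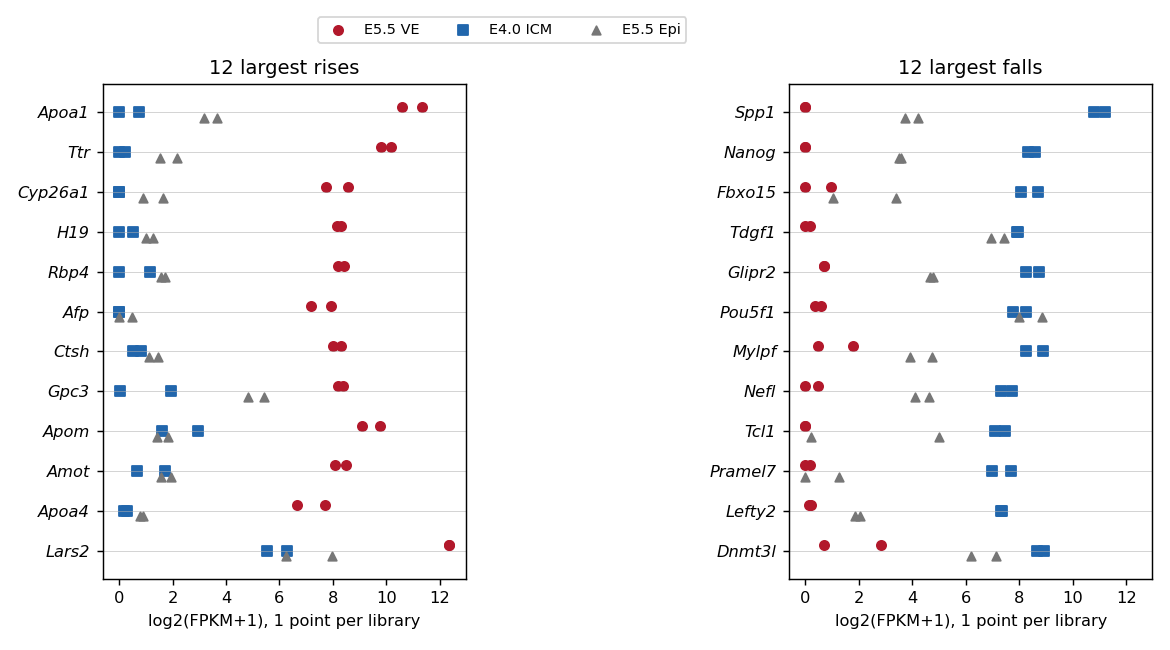
The 12 largest rises (left) and 12 largest falls (right) of E5.5 visceral endoderm (circles) against E4.0 inner cell mass (squares), as log2(FPKM+1) with 1 point per library, and E5.5 epiblast (triangles) for reference. Genes were chosen among standard symbols to have no overlap between visceral endoderm and inner cell mass libraries. Among the falls epiblast lies nearest to the inner cell mass for Pou5f1 and Tdgf1.

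Promoter sequences of 4 genes are printed to show windows with and without the letters searched for, from RefSeq on GRCm38.p6, on the plus strand, 250 bases before to 50 bases after the start. The study's reads were mapped to mm9, and these coordinates are not those of the expression table. Apoa1 is the largest of the leading rises, Afp a rise listed at 0 in ICM and Nanog one of the largest falls. Wnt3, a rise under 4 FPKM, was chosen because it is 1 of the 14 rises whose windows hold the HNF4 letters. Capitals mark matches on either strand to 6 sets of letters. The sets were AGATAA for factors of the zinc finger family that includes Gata4 and Gata6, and GTTAAT, which is part of an HNF1 site. TGTTTAC stood for forkhead factors such as Foxa1, and CAAAGTCCA for Hnf4a. ACAATGG stood for SOX factors, and ATGCAAAT was the octamer bound by Pou5f1. The windows lie at chr9:46228380-46228679 for Apoa1, chr5:90490464-90490763 for Afp, chr11:103773925-103774224 for Wnt3 and chr6:122707239-122707538 for Nanog, the first of 2 starts listed for it.
Apoa1: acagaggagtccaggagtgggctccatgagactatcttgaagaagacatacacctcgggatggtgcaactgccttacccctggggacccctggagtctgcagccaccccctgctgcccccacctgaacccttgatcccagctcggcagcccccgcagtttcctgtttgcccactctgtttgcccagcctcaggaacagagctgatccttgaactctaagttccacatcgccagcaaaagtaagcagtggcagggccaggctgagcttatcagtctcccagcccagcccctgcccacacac
Afp: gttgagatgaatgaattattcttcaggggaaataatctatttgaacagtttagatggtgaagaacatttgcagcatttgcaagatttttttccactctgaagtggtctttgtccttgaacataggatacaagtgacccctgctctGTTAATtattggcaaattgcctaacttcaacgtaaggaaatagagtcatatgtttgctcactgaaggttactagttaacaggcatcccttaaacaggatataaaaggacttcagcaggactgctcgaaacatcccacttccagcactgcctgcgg
Wnt3: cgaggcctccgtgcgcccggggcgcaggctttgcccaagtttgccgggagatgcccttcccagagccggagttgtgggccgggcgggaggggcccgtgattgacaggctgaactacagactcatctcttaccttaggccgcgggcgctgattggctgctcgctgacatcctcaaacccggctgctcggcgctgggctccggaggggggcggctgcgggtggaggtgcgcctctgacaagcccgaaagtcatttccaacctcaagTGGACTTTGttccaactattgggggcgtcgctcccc
Nanog: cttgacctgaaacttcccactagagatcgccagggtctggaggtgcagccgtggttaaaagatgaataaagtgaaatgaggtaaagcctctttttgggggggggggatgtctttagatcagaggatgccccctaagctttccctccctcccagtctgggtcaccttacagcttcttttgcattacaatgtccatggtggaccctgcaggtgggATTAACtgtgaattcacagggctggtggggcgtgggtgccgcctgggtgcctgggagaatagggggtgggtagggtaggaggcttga

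The Afp window held GTTAAT at -105 to -100 from the start, and the Nanog window held its reverse complement ATTAAC at -37 to -32. The Wnt3 window held TGGACTTTG, the reverse complement of the HNF4 letters, at 14 to 22 after the start, and the Apoa1 window held none of the 6. Over 32851 promoters of this length, GTTAAT occurred in 7.10% and the HNF4 letters in 0.475%. Among tested genes with a promoter in the table, the HNF4 letters occurred in 14 of 1068 genes that rose under every scaling (1.31%) and in 5 of 1043 that fell under every scaling (0.479%), beside 50 of 9428 tested (0.530%). The 14 rises included Pilra, Pilrb1 and Pilrb2, similarly named genes all on chromosome 5, which may not be independent. None of the 9 leading rises with a promoter in the table held the HNF4 letters. GTTAAT occurred in 6.84% of the rises and 5.47% of the falls, beside 5.52% of genes tested, and in 1 of 9 leading rises and 4 of 9 leading falls. The GATA letters occurred in 7.58% of the rises and 8.25% of the falls, beside 7.90% of genes tested. These are counts of letters in short windows and say nothing of binding.

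Endoderm transcription factors showed both directions. Of 12 tested, 7 were called higher in VE, 1 lower and 4 not called, and the list's median log2 fold was 1.09. The fit on the 4 libraries alone kept 3 of the 7 rises and lost Gata4, Foxa2, Foxa3 and Sox17. Foxa1, a forkhead factor that opens chromatin at endoderm genes, had 15.8 and 10.9 FPKM in VE against 0 and 0.467 FPKM in ICM. Hnf4a, a nuclear receptor that drives liver and visceral endoderm genes, had 9.39 and 21.5 FPKM in VE against 0.690 and 0.470 FPKM in ICM (log2 fold 3.28 ± 0.33, limma adjusted p = 3.7e-07). Tcf7l2, a Wnt effector, and Foxa3 also rose, with log2 folds of 2.21 and 1.91.

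Factors of primitive endoderm were already present in E4.0 ICM. Gata6, which starts the primitive endoderm program, had 8.44 and 17.4 FPKM in VE against 10.4 and 10.7 FPKM in ICM and was not called (limma adjusted p = 0.74). Gata4 and Foxa2 were called higher with log2 folds of 1.13 and 1.05. The Gata4 call was lost without E5.5 VE replicate 2 or E4.0 ICM replicate 1, the Foxa2 call without E5.5 VE replicate 1 or E4.0 ICM replicate 2, and the call of Sox17 (log2 fold 1.19) without E4.0 ICM replicate 1. Sox7 was the single member that fell (log2 fold -3.21 ± 0.34, limma adjusted p = 7.2e-07). Cebpa, a factor of liver, stayed at or under 0.0922 FPKM in all 4 libraries.

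Across 4 stages Sox7 had a peak at E4.0. It was listed at 0 in both E3.5 ICM libraries, had 61.4 and 74.7 FPKM in E4.0 ICM, 3.32 and 11.8 FPKM in E5.5 VE and 9.53 and 11.9 FPKM in E6.5 VE. Set against E3.5 ICM, E6.5 VE was therefore higher for Sox7 (log2 fold 3.54, limma adjusted p = 1.4e-07). The size of this fold depends on the 1 FPKM added before the log, because E3.5 ICM was listed at 0. Gata6 was lower in the same comparison, with a mean of 4.19 FPKM in E6.5 VE against 21.0 FPKM in E3.5 ICM (log2 fold -2.09).

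**Figure D3:**
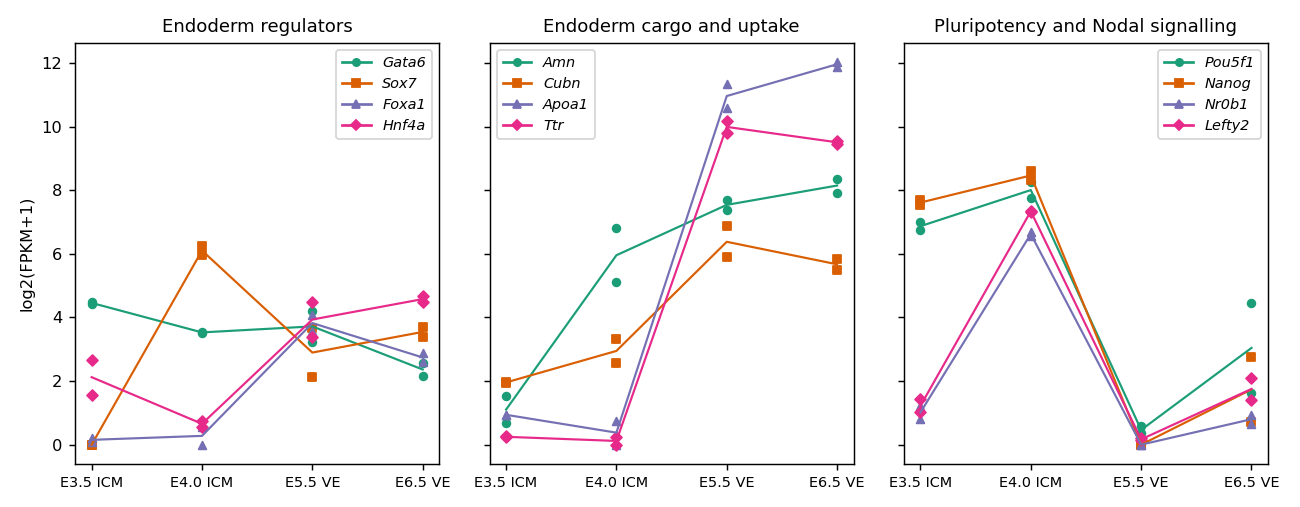
Level of 12 genes as log2(FPKM+1) in E3.5 inner cell mass, E4.0 inner cell mass, E5.5 visceral endoderm and E6.5 visceral endoderm, with 1 point per library and lines through the means of 2. Sox7, Nr0b1 and Lefty2 stand highest at E4.0, Ttr and Apoa1 appear at E5.5, and Amn is already high in E4.0 inner cell mass.

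Surface and signalling genes of primitive endoderm did not move as a block. Of 10 tested, 3 rose, 5 fell and 2 were not called, with a median log2 fold of -0.90, and 2 falls held after both rescalings. With the 4 libraries fitted alone, 1 rise and 3 falls kept their call, and those of Dab2, Pdgfra and Fgfr2 were among the losses. Cubn, the endocytic receptor cubilin, had 58.5 and 115 FPKM in VE against 9.10 and 4.89 FPKM in ICM, and Dab2, its endocytic adaptor, had 161 and 388 FPKM in VE against 50.8 and 96.6 FPKM in ICM. The FGF feedback genes Spry4 and Dusp4 fell with log2 folds of -2.42 and -2.39 and kept the call after both rescalings. Pdgfra, the receptor most used to mark primitive endoderm, had 1.71 and 2.05 FPKM in VE against 13.5 and 5.63 FPKM in ICM. Its call and those of Fgfr2 and Lrpap1 were lost after median centring, where their log2 folds were -0.98, -0.33 and -0.72, and the Fgfr2 call also without E5.5 VE replicate 2 or E4.0 ICM replicate 2.

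Serum proteins were mostly under 1 FPKM in ICM. Of 14 members, 12 passed the filter on low values, Alb and Ahsg being left out by it. Of the 12, 10 rose and none fell, with a median log2 fold of 3.09. In both E4.0 ICM libraries 11 of the 12 were under 1 FPKM, as were 2830 of all 12874 genes tested. Those 11 could not be called lower, because a log2(FPKM+1) below 1 cannot fall by 1. They passed the filter only through libraries other than E4.0 ICM, so the lack of falls is no result for them. Trf, transferrin, the iron carrier, had 55.9 and 91.5 FPKM in VE against 0.379 and 0 FPKM in ICM. The beta chain of fibrinogen, Fgb, had 21.0 and 24.2 FPKM in VE against 0.131 and 0 FPKM in ICM, and prothrombin, F2, had 5.56 and 7.88 FPKM in VE against 0.803 and 0 FPKM in ICM. Coagulation factor F5 and the antiplasmin gene Serpinf2 were called higher from 0 in both ICM libraries. Not all liver proteins were detected. Alb, albumin, was listed at 0 in all 4 libraries, and Fga, the alpha chain of fibrinogen, had 0.561 and 0.925 FPKM in VE and did not reach the fold required. Ambp had 3.19 and 0.437 FPKM in VE, and its call as higher was lost without E5.5 VE replicate 1 and in the fit on the 4 libraries.

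Apolipoproteins and the enzymes that load lipid onto them rose in 11 of 12 cases, with a median log2 fold of 5.43. Apob, the scaffold of large lipoproteins, had 52.0 and 43.8 FPKM in VE and was listed at 0 in both ICM libraries. Mttp, which transfers lipid to Apob, had 41.9 and 55.2 FPKM in VE against 0 and 0.0685 FPKM in ICM. Apoc2, the activator of lipoprotein lipase, had 636 and 1016 FPKM in VE against 13.8 and 11.2 FPKM in ICM. Pla2g12b, which takes part in lipoprotein assembly, and Soat2, which makes cholesteryl esters, rose with log2 folds of 5.29 and 3.71.

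A few apolipoproteins were high before the VE formed. Apoe, a ligand of lipoprotein receptors, had 1346 and 1350 FPKM in VE against 848 and 633 FPKM in ICM, a log2 fold of 0.88 that fell short of the fold required (limma adjusted p = 0.0048). Apoc1 had 401 and 524 FPKM in VE against 196 and 142 FPKM in ICM and was called higher. Apoa2 had 28.0 and 371 FPKM in VE against 14.1 and 19.7 FPKM in ICM, and its call (log2 fold 2.55) was lost without E5.5 VE replicate 2 or E4.0 ICM replicate 1, and in the fit on the 4 libraries. All 12 members of this list were called higher in E5.5 VE against E5.5 Epi, as were 11.3% of all genes tested.

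The uptake machinery was partly in place at E4.0. Of 10 endocytic receptors and adaptors, 5 rose, 2 fell and 3 were not called, with a median log2 fold of 0.90. After both rescalings 1 of the 2 falls held. The fit on the 4 libraries kept both falls and 2 of the rises, losing Amn, Dab2 and Lrp2. At E4.0, 6 of the 10 had at least 10 FPKM in both ICM libraries, as did 4317 of all 12874 genes tested. Amn, amnionless, which carries cubilin to the membrane, had 166 and 206 FPKM in VE against 111 and 33.3 FPKM in ICM, and its call was lost without E4.0 ICM replicate 2. In E3.5 ICM it had 1.89 and 0.598 FPKM. Folr1, a folate receptor, had 185 and 264 FPKM in VE against 87.1 and 95.7 FPKM in ICM. Lrp2, the large receptor megalin, had 4.89 and 56.3 FPKM in VE against 2.94 and 1.31 FPKM in ICM, and its call was lost without E5.5 VE replicate 2. Tfrc, the transferrin receptor, went against the list with 4.24 and 3.81 FPKM in VE against 21.2 and 37.8 FPKM in ICM, and Scarb1, which binds lipoproteins, was not called.

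Lysosomal genes were abundant in both tissues. Of 16 tested, 13 had at least 10 FPKM in both E4.0 ICM libraries, as did 4317 of all 12874 genes tested. Of the 16, 7 rose, 2 fell and 7 were not called, with a median log2 fold of 0.20, and 1 fall held after both rescalings. Fitted on the 4 libraries alone, 5 rises and neither fall kept their call. The rises were proteases and membrane proteins. Ctsc, cathepsin C, had 201 and 283 FPKM in VE against 19.9 and 33.4 FPKM in ICM, and Lgmn, legumain, had 255 and 364 FPKM in VE against 44.9 and 38.9 FPKM in ICM. Npc1, which exports cholesterol from lysosomes, had 18.2 and 17.3 FPKM in VE against 3.97 and 1.69 FPKM in ICM. Hexa, a subunit of lysosomal hexosaminidase, was called lower with a log2 fold of -1.27, and its call was lost after both rescalings and without E5.5 VE replicate 1 or either E4.0 ICM library. Ctsl, cathepsin L, had 516 and 930 FPKM in VE against 446 and 531 FPKM in ICM and was not called.

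Iron and metal genes rose in 6 of 10 cases, with 1 fall, which held after both rescalings, and a median log2 fold of 1.59. Of the rises 3 were lost in the fit on the 4 libraries, namely Fth1, Mt1 and Mt2. Slc40a1, the iron exporter ferroportin, had 17.98 and 60.3 FPKM in VE against 1.41 and 0.0439 FPKM in ICM. Slc39a4, a zinc importer, had 46.8 and 49.2 FPKM in VE against 11.5 and 5.06 FPKM in ICM. Fth1, the ferritin heavy chain, had 1520 and 2728 FPKM in VE against 601 and 659 FPKM in ICM. The metallothioneins Mt1 and Mt2 were called higher with log2 folds of 1.62 and 1.56, and both calls were lost without E5.5 VE replicate 2, where Mt1 stood at 5416 FPKM beside 2075 FPKM in replicate 1. Tfrc was the single fall, while its ligand Trf was among the rises.

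Sterol synthesis genes were mostly not called. Of 11 tested, 1 rose, 3 fell and 7 were not called, near the shares of all genes tested (11.4% higher and 29.3% lower). The median log2 fold was -0.24, and the falls of Idi1, Fdft1 and Sqle were each lost after rescaling and in the fit on the 4 libraries. Without E5.5 VE replicate 1 there were 3 rises and 1 fall, and without E4.0 ICM replicate 1 there were 2 of each. Either rescaling gave 3 rises. Idi1, an isomerase of the isoprenoid steps, had 8.39 and 14.4 FPKM in VE against 32.8 and 32.5 FPKM in ICM. Cyp51, a sterol demethylase, had 6.78 and 12.9 FPKM in VE against 18.2 and 11.9 FPKM in ICM and was not called.

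Retinoid genes were divided. Of 9 tested, 5 rose, 3 fell and 1 was not called, with a median log2 fold of 1.02, and 1 fall held after both rescalings. The share of falls was near the 29.3% of all genes tested. The fit on the 4 libraries lost Rara, Rarb and Aldh1a2. The rises of Rbp4 and Cyp26a1 are given above. Rara and Rarb, the retinoic acid receptors, were called higher at low levels, with calls lost without E4.0 ICM replicate 2 or E5.5 VE replicate 2, and for Rarb also without E5.5 VE replicate 1. Stra6, the membrane receptor for Rbp4, had 1.29 and 1.31 FPKM in VE against 15.8 and 8.40 FPKM in ICM, and Crabp2, a carrier of retinoic acid, was listed at 0 in both VE libraries against 3.35 and 1.70 FPKM in ICM. The Stra6 call held after both rescalings. Aldh1a2, which makes retinoic acid, was listed at 0 in both VE libraries against 1.91 and 0.575 FPKM in ICM. Its call and that of Crabp2 were lost after median centring, and that of Aldh1a2 also without E4.0 ICM replicate 1 or either VE library.

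Anterior visceral endoderm genes rose in 7 of 9 cases, with none falling and a median log2 fold of 2.29. In both E4.0 ICM libraries 4 of the 9 were under 1 FPKM, and those could not be called lower. Cer1, a secreted inhibitor of Nodal, BMP and Wnt, had 114 and 35.5 FPKM in VE and was listed at 0 in both ICM libraries. Lhx1, a LIM homeodomain factor, had 34.5 and 30.5 FPKM in VE and was listed at 0 in both ICM libraries, and Sfrp5, a Wnt antagonist, had 82.0 and 60.7 FPKM in VE against 0.106 and 0 FPKM in ICM. Hhex, a homeodomain factor of anterior endoderm, had 33.0 and 16.0 FPKM in VE against 2.86 and 5.29 FPKM in ICM, and Gsc, Otx2 and Sfrp1 rose too. The Hhex call was lost in the fit on the 4 libraries. The Nodal inhibitor Lefty1 and the Wnt inhibitor Dkk1 were the exceptions. Lefty1 had 72.0 and 16.5 FPKM in VE against 58.3 and 13.5 FPKM in ICM, and Dkk1 had 58.8 and 31.7 FPKM in VE against 45.1 and 53.3 FPKM in ICM. Neither was called (limma adjusted p = 0.72 and 0.74), although both were called higher in E6.5 VE against E3.5 ICM, with log2 folds of 7.35 and 3.86.

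Epithelial genes rose in 8 of 15 cases, with 1 fall, which held after both rescalings, and a median log2 fold of 2.06. In the fit on the 4 libraries 6 rises and no fall kept their call. Cldn6, a claudin of embryonic tight junctions, had 377 and 486 FPKM in VE against 9.48 and 1.98 FPKM in ICM. The simple keratins Krt8 and Krt18 had 140 and 90.0 FPKM and 216 and 232 FPKM in VE, against 6.21 and 3.09 FPKM and 8.39 and 3.32 FPKM in ICM. Vil1, villin, which bundles actin in microvilli, had 13.8 and 20.3 FPKM in VE against 0 and 0.0239 FPKM in ICM. Cdh2, N-cadherin, rose with a log2 fold of 3.36, while Cdh1, E-cadherin, had 40.7 and 29.7 FPKM in VE against 42.1 and 26.6 FPKM in ICM and was not called. Cldn4 fell, with 0.274 and 0 FPKM in VE against 11.6 and 1.56 FPKM in ICM, and this call was lost without E4.0 ICM replicate 1.

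Basement membrane genes were already abundant in the E4.0 ICM, where 11 of 13 had at least 10 FPKM in both libraries. Over all 12874 genes tested, 4317 did. Of 13 tested, 1 rose, 5 fell and 7 were not called, beside 11.4% higher and 29.3% lower among all genes tested. The list's median log2 fold was -0.86, and 2 falls kept their call after both rescalings. The count of falls depended on single libraries, with 9 without E4.0 ICM replicate 2 and 3 without E4.0 ICM replicate 1, and 1 was kept in the fit on the 4 libraries. All 13 genes were higher in E4.0 ICM replicate 1 than in replicate 2. Lama1, the laminin alpha chain of early basement membranes, had 2.43 and 2.65 FPKM in VE against 72.2 and 20.6 FPKM in ICM (log2 fold -3.49 ± 0.43, limma adjusted p = 3.8e-06). Lamb1 had 26.03 and 15.97 FPKM in VE against 169 and 44.8 FPKM in ICM, and its call was lost in the fit on the 4 libraries. The single rise was Lama5, another laminin alpha chain, with 13.2 and 7.81 FPKM in VE against 8.19 and 1.64 FPKM in ICM, a call lost without E5.5 VE replicate 1 or E4.0 ICM replicate 2, and there were 3 rises without E4.0 ICM replicate 1. Col4a1, a chain of type IV collagen, had 44.0 and 51.0 FPKM in VE against 114 and 23.8 FPKM in ICM and was not called. Against E5.5 Epi, 10 of the 13 were called higher in E5.5 VE, as were 11.3% of all genes tested.

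Markers of parietal endoderm were mostly lower in VE. Of 8 tested, 5 fell, 1 rose and 2 were not called, with a median log2 fold of -1.60, and 3 falls (Sox7, Stra6 and Snai1) held after both rescalings. The calls of Snai1 and Pth1r were lost in the fit on the 4 libraries. Snai1, a repressor of E-cadherin, had 2.70 and 3.91 FPKM in VE against 20.5 and 10.0 FPKM in ICM. Pth1r, the receptor for parathyroid hormone-related peptide, went the other way with 15.2 and 38.2 FPKM in VE against 4.30 and 3.80 FPKM in ICM. Thbd, thrombomodulin, a defining marker, was listed at 0 in both VE libraries and had 0.0510 and 0.0595 FPKM in ICM.

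**Figure D4:**
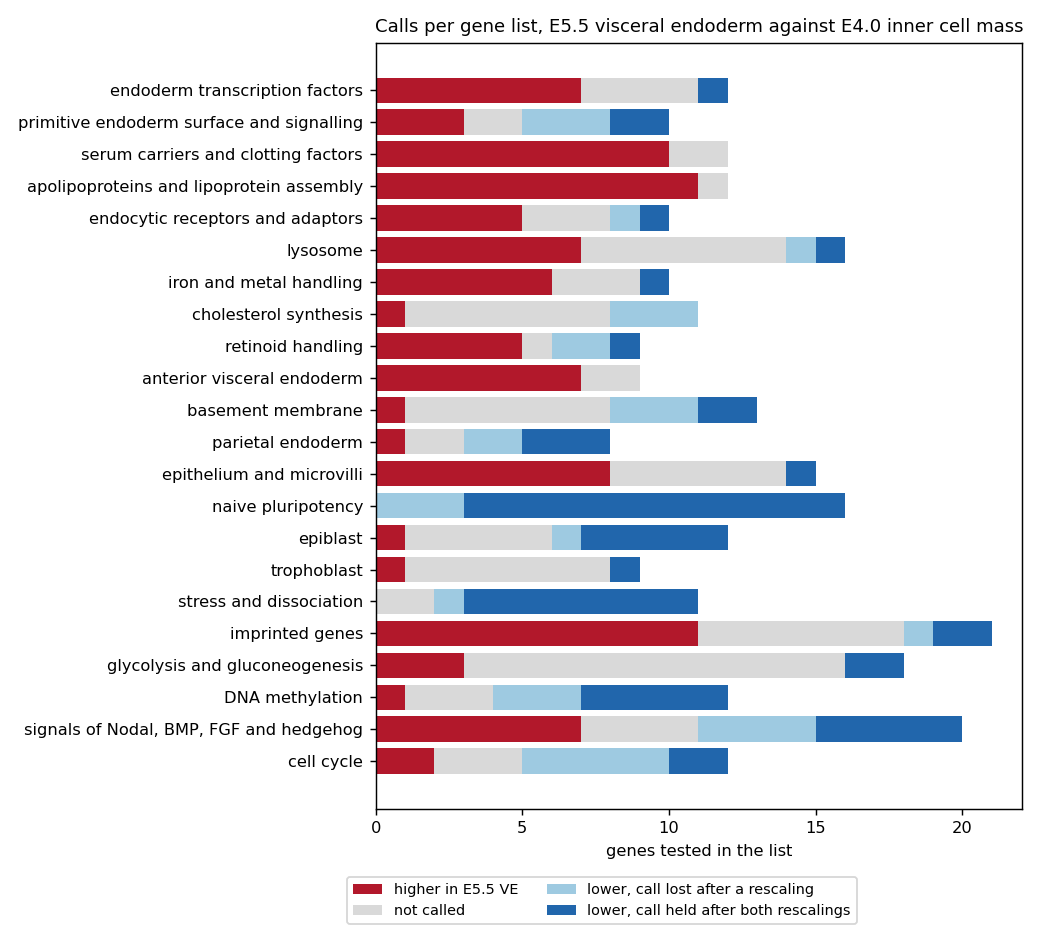
Number of genes tested in each list that were higher in E5.5 visceral endoderm, not called, or lower, with falls split by whether the call held after quantile normalization and after median centring. Serum proteins and apolipoproteins are almost wholly higher, naive pluripotency is wholly lower, and most other lists hold both directions.

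Naive pluripotency genes all fell: 16 of 16 were called lower, 13 of them after both rescalings, with a median log2 fold of -3.29. Besides Nanog and Nr0b1, Esrrb, an orphan nuclear receptor, had 0.0555 and 0.169 FPKM in VE against 8.07 and 10.8 FPKM in ICM. Zfp42, known as Rex1, had 3.03 and 6.19 FPKM in VE against 128 and 204 FPKM in ICM, and Prdm14, a repressor that guards naive pluripotency, was listed at 0 in both VE libraries against 19.6 and 18.5 FPKM in ICM. The calls of Klf2, Nr5a2 and Dppa3 were lost after median centring, and that of Dppa3 also without E5.5 VE replicate 1 or E4.0 ICM replicate 2 and in the fit on the 4 libraries. The extinction was not full for Dppa5a, an RNA-binding protein of pluripotent cells. Among genes with standard symbols it was the most abundant transcript of E4.0 ICM. It kept 100.5 and 428 FPKM in VE against 4039 and 7295 FPKM in ICM. Tfcp2l1 had 1.81 and 5.2 FPKM in VE and a mean of 0.136 FPKM in E5.5 Epi, where it was called higher in VE (log2 fold 1.88).

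Epiblast genes separated into those lost and those shared. Of 12 tested, 6 fell, 1 rose and 5 were not called, with a median log2 fold of -1.06, and 5 falls held after both rescalings. Sox2 had 0.588 and 0 FPKM in VE against 11.6 and 12.3 FPKM in ICM. Fgf5, an FGF used as a marker of formative epiblast, was the rise, with 21.3 and 50.5 FPKM in VE against 3.17e-05 and 1.45e-05 FPKM in ICM. Its E5.5 Epi values were 53.2 and 36.3 FPKM, and VE and Epi were not called different (log2 fold -0.41, limma adjusted p = 0.52). Utf1, a chromatin factor of pluripotent cells, had 44.8 and 93.5 FPKM in VE against 192 and 106 FPKM in ICM, with 404 and 483 FPKM in E5.5 Epi, and its call as lower than ICM was lost after both rescalings, without E5.5 VE replicate 1 or E4.0 ICM replicate 1, and in the fit on the 4 libraries. Pou5f1 (given above) and Pou3f1, a POU factor of later epiblast listed at 0 in both VE libraries, did not share these levels. Sall4 and Lin28a were not called between VE and ICM.

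The imprinted genes rose in 11 of 21 cases and fell in 3, with a median log2 fold of 1.21, and 2 falls held after both rescalings. Meg3, a maternally expressed noncoding RNA, had 111 and 90.2 FPKM in VE against 0.760 and 1.30 FPKM in ICM. Igf2, the growth factor paired with H19, had 27.5 and 20.8 FPKM in VE against 0.668 and 0.697 FPKM in ICM, and Mest had 306 and 77.0 FPKM in VE against 10.5 and 7.40 FPKM in ICM. Peg3, Grb10, which dampens insulin signalling, Gnas, which encodes a G protein subunit, and Sgce were called higher too. Snrpn, a splicing protein, fell to 0.897 and 2.43 FPKM in VE, against 27.0 and 36.0 FPKM in ICM, and its E5.5 Epi mean was 211 FPKM. Phlda2, which restrains placental growth, had 1.21 and 0.847 FPKM in VE against 20.2 and 15.5 FPKM in ICM. The fall of Impact was lost after both rescalings and without E5.5 VE replicate 1 or E4.0 ICM replicate 2. Calls of Igf2r and Cdkn1c were lost without E4.0 ICM replicate 2, and all 3 of these calls in the fit on the 4 libraries. FPKM are summed over both alleles, so these values carry no information on which allele was read.

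Genes that write, read or remove DNA methylation were mostly lower in VE. Of 12 tested, 8 fell, 1 rose and 3 were not called, with a median log2 fold of -1.46, and 5 falls held after both rescalings. The fit on the 4 libraries also kept 5 falls, losing Dnmt1 and Dnmt3a among others. There were 2 rises without E4.0 ICM replicate 1 or E5.5 VE replicate 2, and 4 after median centring. Dnmt3l, the cofactor of the de novo methyltransferases, had 0.601 and 6.14 FPKM in VE against 484 and 406 FPKM in ICM. The dioxygenase Tet2 had 0.520 and 0.275 FPKM in VE against 11.6 and 10.7 FPKM in ICM, and Tet1 had 2.35 and 4.11 FPKM in VE against 15.8 and 14.02 FPKM in ICM. Zfp57, which protects methylation at imprints, had 13.6 and 11.3 FPKM in VE against 178 and 179 FPKM in ICM. Dnmt3b, a de novo methyltransferase, was the rise, with 52.1 and 68.8 FPKM in VE against 15.9 and 16.2 FPKM in ICM and a mean of 173 FPKM in E5.5 Epi. The calls of Dnmt1, Dnmt3a and Uhrf1 as lower were lost after median centring, that of Dnmt1 also without E5.5 VE replicate 2 or E4.0 ICM replicate 1, and that of Dnmt3a also without E5.5 VE replicate 1.

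Genes of Nodal, BMP, FGF and hedgehog signalling moved both ways. Of 20 tested, 7 rose, 9 fell and 4 were not called, with a median log2 fold of -0.48, and 5 falls held after both rescalings. The fit on the 4 libraries kept 4 rises and 6 falls. Fgf8 had 106 and 68.5 FPKM in VE against 0 and 0.346 FPKM in ICM, and Bmp2 had 19.6 and 12.1 FPKM in VE against 0 and 0.332 FPKM in ICM. Bmp4, a ligand of the same receptors as Bmp2, had 0.986 and 3.77 FPKM in VE against 37.7 and 49.9 FPKM in ICM. Lefty2, the second Lefty inhibitor of Nodal, had 0.147 and 0.0996 FPKM in VE against 159 and 162 FPKM in ICM, beside Lefty1, which was not called. Nodal itself had 27.0 and 14.7 FPKM in VE against 34.4 and 12.3 FPKM in ICM and was not called. Etv5, a target of FGF and ERK signalling, had 6.73 and 14.3 FPKM in VE against 67.3 and 86.4 FPKM in ICM. Wnt3 rose at low level, with 3.80 and 1.85 FPKM in VE against 0.0615 and 0 FPKM in ICM, and the rises of Id1, Furin and Ihh were lost without single libraries. These were E5.5 VE replicate 2 for Id1 and Ihh, and E4.0 ICM replicate 2 for Id1 and Furin, and all 3 were lost in the fit on the 4 libraries.

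Glycolysis genes were mostly not called. Of 18 tested, 3 rose, 2 fell and 13 were not called, beside 11.4% higher and 29.3% lower among all genes tested. The median log2 fold was 0.30, and both falls held after both rescalings. Quantile normalization called 6 higher and median centring 10. Pgk1, phosphoglycerate kinase, had 251 and 232 FPKM in VE against 36.7 and 55.8 FPKM in ICM. Pfkp, the platelet form of phosphofructokinase, had 0.359 and 4.17 FPKM in VE against 62.7 and 34.8 FPKM in ICM, while Pfkl, the liver form, was not called. Slc2a2, the glucose carrier of liver and gut, had 1.31 and 5.22 FPKM in VE and was listed at 0 in both ICM libraries, and the rise of Tpi1 was lost without E5.5 VE replicate 2. The Slc2a2 and Tpi1 calls were lost in the fit on the 4 libraries. Cell cycle genes had 2 rises, 7 falls and 3 not called of 12, with a median of -1.13, and of the falls Ccnd3 and Mcm5 held after both rescalings. There were 4 falls without E5.5 VE replicate 1, and 3 were kept in the fit on the 4 libraries, which kept neither rise. The rises, Ccne1 and Cdkn1b, were each lost without E5.5 VE replicate 1 and without 1 of the ICM libraries.

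Genes of acute stress and dissociation were higher in the E4.0 ICM libraries. Of 11 tested, 9 were lower in VE, 8 of them after both rescalings and 8 in the fit on the 4 libraries, and none was higher, with a median log2 fold of -2.81. The 14 genes of this list in the table summed to 32.4 and 38.7 FPKM in E5.5 VE, against 339 and 297 FPKM in E4.0 ICM. Egr1 and Fos, immediate early genes, were listed at 0 in both VE libraries, against 47.6 and 48.3 FPKM and 28.6 and 20.6 FPKM in ICM. Ddit3, a factor of the integrated stress response, had 0.651 and 0.676 FPKM in VE against 40.8 and 35.3 FPKM in ICM. In E3.5 ICM, prepared by the same protocol as E4.0 ICM, the 14 genes summed to 65.9 and 70.8 FPKM, and in E5.5 Epi to 80.7 and 96.8 FPKM. Egr1 and Fos are also targets of FGF signalling. The part of FGF signalling in their falls was not tested, nor was that of sample handling in the falls of other genes.

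The replicates of each group differed in which gene lists they favoured. All 9 anterior visceral endoderm genes were higher in E5.5 VE replicate 1 than in replicate 2, as were 29.9% of all tested genes. The median log2 difference, replicate 1 minus 2, was 0.87 for the list and -0.15 for all genes. Of 16 lysosomal genes 1 was higher in E5.5 VE replicate 1, with a median difference of -0.73. In E4.0 ICM all 13 basement membrane genes were higher in replicate 1, with a median log2 difference of 1.76, beside 46.1% of all tested genes and a median of 0. These are differences between single libraries and have no replicate check.

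**Figure D5:**
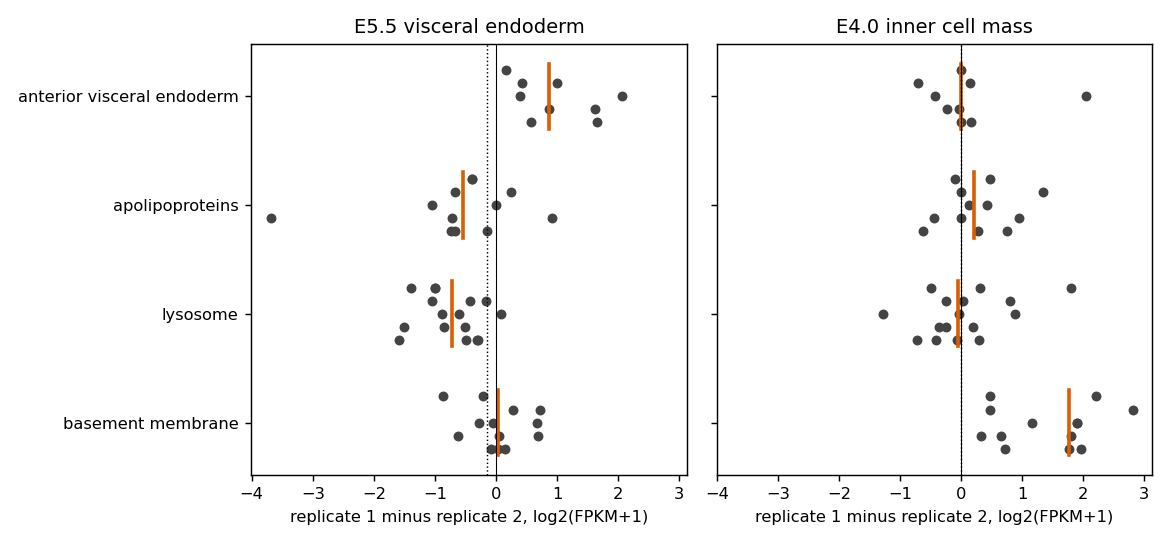
Difference between the replicates, as replicate 1 minus replicate 2 in log2(FPKM+1), for 4 gene lists in E5.5 visceral endoderm (left) and E4.0 inner cell mass (right). Each point is a gene, orange bars are list medians and the dotted line is the median of all genes tested, and points of the anterior visceral endoderm list lie right of 0 in visceral endoderm as those of the basement membrane list do in the inner cell mass.

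E6.5 VE against E3.5 ICM gave a second look in libraries that the main comparison did not use, though from the same pair of preparations. It called 39.9% of genes, 3928 of them higher (30.5%) and 1206 lower (9.37%), and its overall shift ran the other way, with a median log2 fold of 0.47 over all genes. The balance of calls depended on scaling, with 2112 higher and 2096 lower after quantile normalization and 1704 higher and 2765 lower after median centring. After both rescalings 1702 of its rises (13.2% of genes) and all 1206 of its falls (9.37%) held. Of the 1467 rises, 919 (62.6%) were called higher there too, which is 23.4% of the genes higher in E6.5 VE, and 23 were called lower. Of the 3767 falls, 629 (16.7%) were called lower there, which is 52.2% of the genes lower in E6.5 VE, and 778 (20.7%) were called higher. With calls held after both rescalings in each comparison, 649 of 1463 rises (44.4%) were among the rises of E6.5 VE, which is 38.1% of those, and 23 (1.57%) among its falls. Of 1403 such falls, 431 (30.7%) were among the falls of E6.5 VE, which is 35.7% of those, and 41 (2.92%) among its rises. By list, 11 of 12 serum proteins, 11 of 12 apolipoproteins and 8 of 9 anterior visceral endoderm genes were called higher in E6.5 VE, and 14 of 16 naive pluripotency genes were called lower, and all of these calls held after both rescalings. Nr0b1 was not called there, with 0.575 and 0.926 FPKM in E6.5 VE against 0.752 and 1.34 FPKM in E3.5 ICM.

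E5.5 VE against E5.5 Epi tests whether the change from E4.0 ICM differed between the tissues, because the ICM values cancel. It called 41.6% of genes, 1458 higher in VE (11.3%) and 3904 lower (30.3%), of which 1564 lower calls (12.1%) held after both rescalings. All 12 apolipoprotein genes, 14 of 16 lysosomal genes and 10 of 12 endoderm transcription factors were higher in VE, among them Gata6 (log2 fold 3.62), which was not called against E4.0 ICM. Tfrc (log2 fold -2.88) and Dnmt3a (-4.05) were lower in VE, and of 18 glycolysis genes 11 were lower, 6 of them after both rescalings, and 2 higher. Of 16 naive pluripotency genes 8 were not called, 6 were lower, 4 of them after both rescalings, and 2, Tfcp2l1 and Tbx3, were higher.

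Ribosomal proteins were among the most abundant transcripts of both tissues. In E5.5 VE the 6 highest means among genes with standard symbols belonged to Rpl41, Lars2, Mt1, Rplp1, Fth1 and Apoa1. In E4.0 ICM they included Dppa5a, Eef1a1, Rpl32, Rpl41 and Spp1. Rpl41, a ribosomal protein, had 5991 and 5526 FPKM in VE against 2147 and 2148 FPKM in ICM and was called higher, a call lost in the fit on the 4 libraries. Rplp1 and Rpl32 were not called, and the call of Eef1a1, an elongation factor, as lower was lost after median centring, without E4.0 ICM replicate 2 and in the fit on the 4 libraries.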

How the data were processed

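Expression was measured by RNA-seq. FPKM were deposited by the authors, made with TopHat2 2.0.11 and Cufflinks 2.0.2 on mm9, per the submitters' processing notes, with replicates in separate columns. The roles of the tools beyond these names are not given in the sources used here. FPKM carry no counts, so depth and counting error are unknown.

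From 22613 genes, 27 lines with date-like symbols were left out, among them the 4 lines repeating a symbol, which left 22586. Values of 1e-06 or less were set to 0. The 12874 genes with at least 1 FPKM in 2 of 22 libraries were tested with limma 3.58.1 in R 4.3.3, run on log2(FPKM+1) values with its trend option. All 11 groups of 2 libraries entered 1 fit, which left 11 residual degrees of freedom. Fold changes are on that scale and understate the change of low genes. Some folds, such as that of Sox7 in E6.5 VE against E3.5 ICM, stand against a group listed at 0, and their size depends on the added 1. Adjusted p is Benjamini-Hochberg over all genes of a comparison, and 3 comparisons were made. A gene was called where that p was below 0.05 and its log2 change was no smaller than 1 either way. Leaving out a library left a lone library, assumed to vary like the other groups.

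Named genes were the 12 largest rises and falls with a mean of at least 10 FPKM and no overlap between groups, members of 23 gene lists by adjusted p or against their list, 6 markers, and the 6 most abundant genes of each group. The rankings of rises, falls and abundant genes kept to standard symbols. They passed over provisional symbols such as the Gm and Rik kinds, small RNA genes, pseudogenes and database identifiers. Members and lists were chosen with earlier results of these data known. Alternatives were a pseudocount of 0.1, other filters, quantile normalization, median centring, a replicate block, a fit on 4 libraries and each library left out. On simulated data for E5.5 VE against E4.0 ICM with 12874 genes, 100 were changed 2-fold and 100 4-fold, all drawn from genes with higher means. By adjusted limma p alone 14% of the 2-fold changes were recovered. By p and fold together 92% of the 4-fold changes were, with 1 unchanged gene called. A far larger share, 40.7%, was called in the data, so these rates do not carry over to it. Tables came from pandas 2.3.3 and numpy 2.4.6 and figures from matplotlib 3.10.9, under Python 3.11.15. Some genes that these rules name are not reported here.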

Additional observations from a re-analysis of the deposited data

How the results depend on the processing

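For E5.5 VE against E4.0 ICM, median centring moved the counts most, to 3421 higher and 1404 lower. A fit on the 4 libraries alone called 812 higher and 2076 lower, and 63 of 191 called genes of the lists and named sets lost their call in it. That fit took the spread from these libraries only, with fewer degrees of freedom. Quantile normalization gave 2238 higher and 2313 lower. For E6.5 VE against E3.5 ICM, quantile normalization gave 2112 higher and 2096 lower, and median centring 1704 higher and 2765 lower. Its own fit on 4 libraries called 3916 higher and 1200 lower, beside 3928 and 1206 in the main fit. Replicate differences had a standard deviation of 0.563 in E5.5 VE and 0.579 in E4.0 ICM. In E6.5 VE it was 0.366 and in E3.5 ICM 0.333. The main fit pools the spread of all 11 groups, so it may understate that of E5.5 VE and E4.0 ICM. For E5.5 VE against E5.5 Epi, quantile normalization gave 2329 higher and 2510 lower, and median centring 3297 higher and 1578 lower. Leaving out each library in turn, calls for E5.5 VE against E4.0 ICM ran from 1339 to 1502 higher and from 3053 to 4181 lower. The replicate block gave 1472 higher and 3769 lower. The correlation of same-numbered deviations was 0.074. It rests on a single replicate difference per group, so it cannot settle whether the numbers pair the libraries. No call of a gene named here reversed under any alternative run. Median centring moves genes listed at 0 away from 0, which limits it for switched genes. With no counts, low values have unknown error.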

Other observations

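Levels alone, with cuts chosen after the values were seen, set apart 33 genes with at least 10 FPKM in both E5.5 VE libraries and under 1 FPKM in every library of E4.0 ICM, E3.5 ICM and E5.5 Epi. They held secreted proteins such as Spp2, with 20.9 and 35.4 FPKM in E5.5 VE, and Lect2, with 16.5 and 33.8 FPKM in E5.5 VE, both listed at 0 in the E4.0 ICM libraries. They also held Mixl1, a homeobox gene of primitive streak and endoderm, with 30.1 and 49.2 FPKM in E5.5 VE against 0.430 and 0 FPKM in E4.0 ICM, and Lgals2, a galectin, with 26.1 and 192.9 FPKM in E5.5 VE against 0.923 and 0 FPKM in E4.0 ICM. Its E5.5 VE libraries lay far apart. The rule asked nothing of E6.5 VE, where Spp2 had 46.9 and 51.9 FPKM and Lect2 had 49.2 and 64.1 FPKM. In E6.5 VE Mixl1 had 107 and 168 FPKM and Lgals2 had 76.1 and 76.7 FPKM, so these genes were not particular to E5.5 VE. The pseudogene Pisd-ps1, also in this class, was under 1 FPKM in both E6.5 VE libraries.

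By another rule, which asked nothing of E5.5 Epi, 11 genes had at least 10 FPKM in both E4.0 ICM libraries and under 1 FPKM in every library of E5.5 VE, E6.5 VE and E3.5 ICM. Among them were Chac1, an enzyme of glutathione breakdown in the stress response, listed at 0 in E5.5 VE against 49.9 and 117.9 FPKM in E4.0 ICM, and Stmn2, a tubulin-binding stathmin, listed at 0 in E5.5 VE against 55.7 and 35.5 FPKM in E4.0 ICM. Both were detected in E5.5 Epi, Chac1 with 10.0 and 16.9 FPKM and Stmn2 with 8.75 and 8.91 FPKM. Egr1 and Atf3 of the stress list were in this class too. The pseudogene Pisd-ps1 and 1 transcript named by a database identifier were the 2 tested genes with at least 10 FPKM in both E5.5 VE libraries and under 1 FPKM in every library of E4.0 ICM and E6.5 VE.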
